A study of Mus musculus with 9 samples.

Results

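Cdkn2a, Cdkn2b, Cdkn2c, Cdkn2d, Cdkn1a, Cdkn1b, Cdkn1c, Cdk4, Cdk6 and Rb1, the inhibitors of the cyclin-dependent kinases of G1 with 2 of their target kinases and the retinoblastoma gene, were taken by symbol from an RNA-seq table of mouse colonic mucosa. All 10 were among the 54146 genes listed, and 9 of them had reads. The mucosa came from 9 C57BL/6J mice at 15 wk of age, of which 5 were ApcMin/+ (2 female, 3 male) and 4 were ApcMin/+; p16cis/cis (3 female, 1 male). Every mouse carried ApcMin, a germline nonsense allele of Apc on 1 of its 2 copies, and no mouse without it was measured. The p16cis/cis mice also carried, on both copies of Cdkn2a, a knocked-in cis-element made to draw DNA methylation to the p16 promoter with age. The study prepared the RNA from colonic crypts, so the levels are averages over the cells of the crypt preparation, and fewer cells of a type and less RNA per cell cannot be told apart. The question is which inhibitors of the p16 pathway the mucosa expressed besides p16 itself, and whether their RNA differed between the genotypes.

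In G1, cyclin D with Cdk4 or Cdk6 phosphorylates Rb1, which otherwise holds E2F factors and keeps the genes of S phase off. Inhibitors of the INK4 family, p16 (from Cdkn2a), p15 (Cdkn2b), p18 (Cdkn2c) and p19 (Cdkn2d), bind Cdk4 and Cdk6 alone and block them. Those of the CIP/KIP family, p21 (Cdkn1a), p27 (Cdkn1b) and p57 (Cdkn1c), bind cyclin-kinase complexes more broadly, Cdk2 included. In colonic crypts, dividing cells lie near the base, and cells leave the cycle as they move up and differentiate.

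The p16 start, the Arf start and Cdkn2b lie next to each other on chromosome 4, all on the minus strand. The 250 bases before each start are shown because the knock-in was aimed at the p16 promoter while the data give a level only for Cdkn2b. By the study's coordinates, its bisulfite pyrosequencing assays of p16 lie further upstream of the p16 start than these 250 bases. The p16 window is therefore not the stretch in which those assays followed methylation. Sequences are from RefSeq (GRCm38.p6), 5′ to 3′, with CpG dinucleotides, the bases that can be methylated, in capitals, and the knocked-in element is not part of them. They cover chr4:89282193-89282442 for the p16 start, chr4:89294620-89294869 for the Arf start and chr4:89311033-89311282 for Cdkn2b.
p16 start: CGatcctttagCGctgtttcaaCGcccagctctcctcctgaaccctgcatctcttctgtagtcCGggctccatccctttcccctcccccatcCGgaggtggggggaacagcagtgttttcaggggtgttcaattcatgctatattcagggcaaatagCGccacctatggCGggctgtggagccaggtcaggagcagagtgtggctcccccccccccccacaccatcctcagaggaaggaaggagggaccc
Arf start: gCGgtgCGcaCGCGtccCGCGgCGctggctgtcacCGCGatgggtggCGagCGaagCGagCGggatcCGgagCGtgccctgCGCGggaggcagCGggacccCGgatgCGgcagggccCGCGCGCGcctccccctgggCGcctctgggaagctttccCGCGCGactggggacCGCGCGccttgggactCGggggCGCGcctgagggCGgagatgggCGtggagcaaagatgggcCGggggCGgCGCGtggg
Cdkn2b: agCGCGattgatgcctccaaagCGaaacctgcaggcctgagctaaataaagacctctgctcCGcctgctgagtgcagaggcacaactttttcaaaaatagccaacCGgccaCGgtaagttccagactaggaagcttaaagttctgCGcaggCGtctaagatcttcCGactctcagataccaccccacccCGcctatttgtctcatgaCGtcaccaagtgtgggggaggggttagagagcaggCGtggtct
The p16 window held 7 CpGs, the Arf window 40 and the Cdkn2b window 12, against a median of 6 over 32851 windows of that length. At least 40 CpGs were found in 1.31% of all windows, at least 12 in 33.5% and at least 7 in 46.3%. RefSeq windows were found for 8 of the 10 genes, 11 windows in all, with 2 to 40 CpGs. The letters TTTNNCGC, a loose form of the E2F recognition sequence, were searched on both strands and were present in 3 of these 11 windows, those of the p16 start, the Arf start and Cdk6, against 4.28% of all windows. The p16 and Arf starts belong to the same gene. The letters hold a CpG, and all windows were not matched to these 11 in CpG number, so no enrichment can be read from the shares. By whole-genome bisulfite sequencing of cultured embryonic fibroblasts, the study reported gain of methylation at the p16 promoter but not at those of Arf and Cdkn2b. DNA methylation was not measured in these 9 libraries.

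The levels below are normalized counts, the reads of a gene divided by the size factor of the mouse, and values by mouse are given in the order of the replicate numbers. Libraries held 15745098 to 17885918 reads on genes in ApcMin/+ mice and 13523500 to 14900228 in ApcMin/+; p16cis/cis mice. These ranges did not overlap, so the depth and the genotype cannot be told apart either. Reads from mitochondrial genes made up 8.74% to 15.6% of the ApcMin/+ libraries and 19.3% to 29.8% of the ApcMin/+; p16cis/cis libraries, with no overlap, so the mitochondrial share and the genotype cannot be told apart. Epithelial markers were abundant, with 9 of 9 above the level needed for the test in both genotypes. Their summed normalized count was 315313 to 522026 in ApcMin/+ mice and 305498 to 325239 in ApcMin/+; p16cis/cis mice. The 7 immune markers summed to 139 to 1356 and to 249 to 428, and the 10 markers of stroma, muscle and vessels to 264 to 750 and to 171 to 364. Jchain and Lyz2 of the 7 immune markers fell, while the estimates of Cd3e and Cd68 were positive (log2 fold change 0.18 and 0.85, limma adjusted p = 0.852 and 0.0903), and DESeq2 called 3 of the 7 lower and 1 higher. Lower values also passed the test for Col3a1, 1 of the 9 stromal markers that were tested, and for Slc26a3, 1 of the 9 epithelial markers. DESeq2 called 4 of 10 stromal and 4 of 9 epithelial markers lower and 0 of either higher. Over all genes, limma called 8.75% lower and 8.14% higher, and DESeq2 called 3251 of 29946 genes with reads in either direction. Cdh5, the cadherin of blood vessels, was listed at 0 in all 4 ApcMin/+; p16cis/cis mice, where a 0 still allows up to 3 reads a mouse. Of 12 genes that every cell uses, none was at 0 in any mouse and 1, Gapdh, fell (log2 fold change -0.93, SE 0.21, limma adjusted p = 0.0124). DESeq2 called 2 of these 12 lower and 0 higher.

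Between the genotypes, 1 of the 9 genes with reads, Rb1, had an adjusted p under 0.05 (limma on log2(normalized count + 1), Benjamini-Hochberg over 14410 genes). Over all genes tested the share was 16.9%, 8.75% being lower in the ApcMin/+; p16cis/cis mice and 8.14% higher. An adjusted p under 0.05 with a fold change over 2 was reached by 3.48% of all genes and by none of the 9, of which Rb1, Cdkn2c, Cdkn2d and Cdkn1b had an unadjusted p under 0.05. With edgeR and DESeq2 none of the 9 reached that fold either. The genotypes did not overlap for Rb1 and Cdkn1b (lower) and for Cdkn2d (higher), against 8.95% of all genes for lower and 7.24% for higher. The median log2 fold change of the 9 was 0.01, beside 0.00 over all genes. The 1 of 9 called was not above the background.

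**Figure D1:**
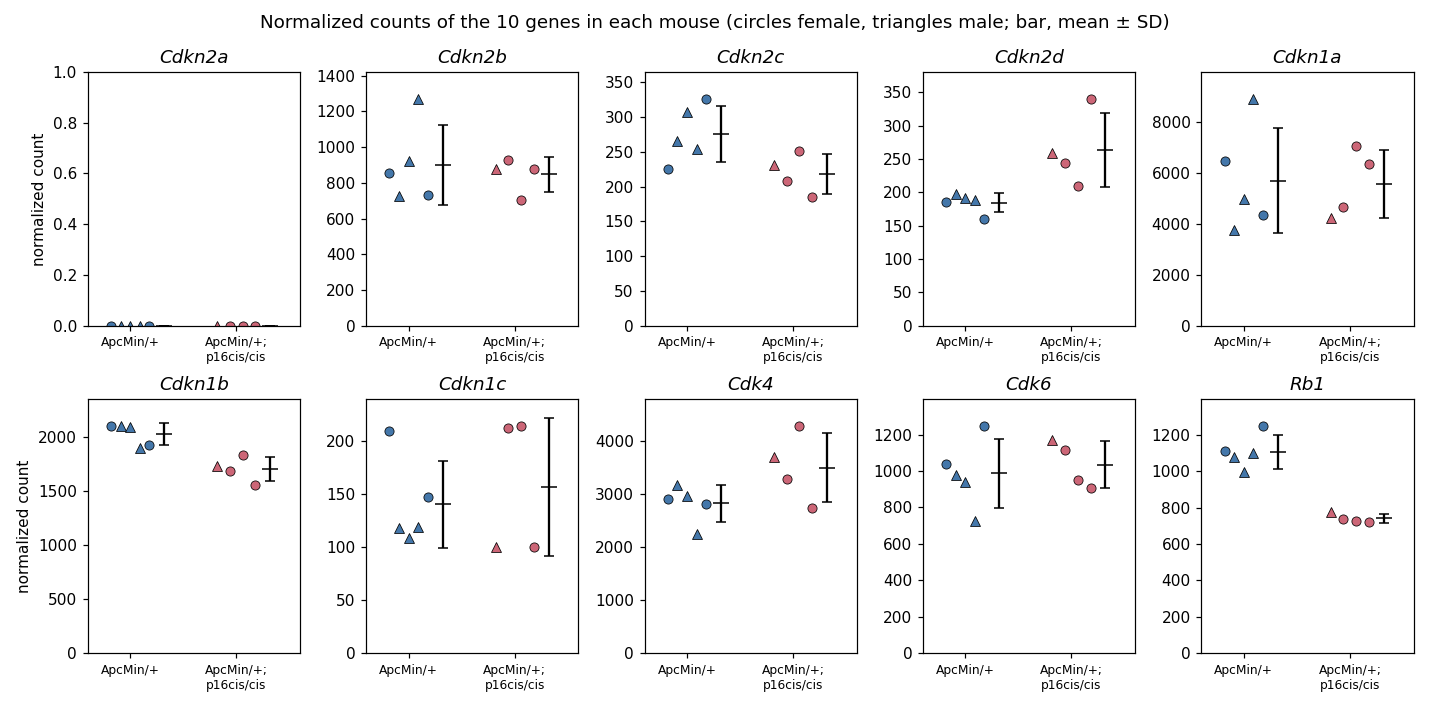
Normalized count of each of the 10 genes in every mouse, by genotype, with the vertical axis from 0, circles for females, triangles for males, and a bar for the mean ± SD (n = 5 and 4). Rb1 and Cdkn1b lie lower and Cdkn2d higher in all 4 ApcMin/+; p16cis/cis mice, Cdkn2a is at 0 in all 9, and the other 6 genes overlap.

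Cdkn2a (ENSMUSG00000044303.6, chr4:89274471-89294653, minus strand) encodes p16 and, from another first exon in another reading frame, Arf, which stabilizes p53. It was listed at 0 in all 5 ApcMin/+ mice and all 4 ApcMin/+; p16cis/cis mice, so the table gives neither a level nor a difference for the gene that the allele targets, and the knock-in cannot be checked by it. The table has 1 row for both products. If the 0 is a true count, it allows up to 3 reads a mouse, a normalized count of 2.85 to 4.79, for counting error only. Whether reads were left unassigned cannot be seen from the table, in which 4396 of 21906 protein-coding genes were at 0 in all 9 mice.

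Cdkn2b (ENSMUSG00000073802.4, chr4:89306299-89311039, minus strand) lies 11645 bases upstream of Cdkn2a as annotated and encodes p15, an INK4 inhibitor known to respond to TGF-β. Its normalized count was 854, 727, 922, 1269 and 730 in the 5 ApcMin/+ mice and 879, 925, 706 and 877 in the 4 ApcMin/+; p16cis/cis mice. The highest value was that of ApcMin/+ replicate 4, and the ranges overlapped. The means were 900 ± 222 (SD, n = 5) and 847 ± 96.4 (SD, n = 4), a log2 fold change of -0.06 (SE 0.16, 95% interval -0.42 to 0.29, limma adjusted p = 0.818). The interval spans a fold of 0.75 to 1.22. The estimate moved with the setting, to 0.07 without ApcMin/+ replicate 4 and to -0.28 (adjusted p = 0.215) after each mouse was corrected for the GC content and length of transcripts.

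Klhl9, Mtap and Dmrta1 are other genes near this locus that passed the filter on low values, and Elavl2 did not pass it. Dmrta1, close to the filter, averaged 11.4 ± 4.07 (SD, n = 5) and 7.17 ± 3.51 (SD, n = 4). Klhl9, a substrate adaptor of a ubiquitin ligase, fell, with 1167 to 1862 in ApcMin/+ mice and 890 to 1104 in ApcMin/+; p16cis/cis mice (log2 fold change -0.43, SE 0.14, limma adjusted p = 0.0489). This call was lost, at an adjusted p of 0.0506 to 0.848, under 16 of 24 other settings, the removal of 8 of the 9 mice one at a time among them. Mtap, the methionine salvage enzyme next to the locus, averaged 149 ± 37.5 (SD, n = 5) and 142 ± 34.0 (SD, n = 4), for a log2 fold change of -0.06 (SE 0.24, adjusted p = 0.900).

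Cdkn2c (ENSMUSG00000028551.14, chr4:109660876-109667189, minus strand) encodes p18. Normalized counts were 225, 265, 307, 254 and 326 in ApcMin/+ mice and 231, 207, 251 and 185 in ApcMin/+; p16cis/cis mice. All 4 of the latter lay below 254, but ApcMin/+ replicate 1 lay among them. The means were 276 ± 40.6 (SD, n = 5) and 219 ± 28.7 (SD, n = 4), for a log2 fold change of -0.33 (SE 0.15, 95% interval -0.66 to 0.00, limma adjusted p = 0.150). The difference did not pass the test, and it did not pass under any of the 24 other settings. After the correction for GC content and length it was larger, at -0.48 (limma adjusted p = 0.072). With the mitochondrial share as a covariate it was -0.039 (limma adjusted p = 0.987).

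Cdkn2d (ENSMUSG00000096472.2, chr9:21288410-21291407, minus strand) encodes p19, the INK4 inhibitor whose name is easily mixed up with the Arf product of Cdkn2a. Its normalized count was 186, 198, 191, 188 and 160 in ApcMin/+ mice, and 259, 244, 209 and 340 with p16cis/cis. The 2 ranges did not overlap, and ApcMin/+; p16cis/cis replicate 3 lay closest to the ApcMin/+ mice. The means were 185 ± 14.5 (SD, n = 5) and 263 ± 55.5 (SD, n = 4), for a log2 fold change of 0.49 (SE 0.16, 95% interval 0.15 to 0.83, limma adjusted p = 0.0522), just short of the threshold. The exact permutation test on this gene alone gave p = 0.00794, the smallest that 126 splits can give (two-sided), and 0.025 within sex, the smallest of 40 arrangements. With no overlap between the genotypes, these values restate the separation and are no further support. The gene passed with edgeR (adjusted p = 0.0407 to 0.0488 over 3 normalizations) and DESeq2 (0.0214), with limma over genes at 10 or more in all mice (0.0488), and without ApcMin/+ replicate 4 (0.0477) or ApcMin/+; p16cis/cis replicate 3 (0.0310). With each mouse corrected for the GC content and length of transcripts, the log2 fold change was 0.28 (adjusted p = 0.253). The 2 other INK4 genes with reads had negative estimates, and no difference between these genes was tested.

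Cdkn1a (ENSMUSG00000023067.13, chr17:29090976-29100727, plus strand) encodes p21, the p53 target that arrests cells after DNA damage and marks differentiating cells of the gut. It had the highest level of the 9 genes with reads and a wide spread. The normalized count was 6485, 3762, 4981, 8918 and 4372 in ApcMin/+ mice and 4229, 4669, 7066 and 6366 in ApcMin/+; p16cis/cis mice. High and low mice were found in both genotypes. The means were 5704 ± 2062 (SD, n = 5) and 5582 ± 1352 (SD, n = 4), for a log2 fold change of 0.01 (SE 0.24, 95% interval -0.51 to 0.52, limma adjusted p = 0.989). The interval allows a fold between 0.70 and 1.44, and 75.4% of all genes varied less within the genotypes.

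Cdkn1b (ENSMUSG00000003031.14, chr6:134920401-134925513, plus strand) encodes p27, which holds Cdk2 inactive in resting cells and is degraded on entry into the cycle. It was among the least variable genes, with 1.44% of all genes varying less within the genotypes. The normalized count was 2097, 2097, 2094, 1897 and 1924 in ApcMin/+ mice and 1734, 1686, 1832 and 1557 in ApcMin/+; p16cis/cis mice. The 2 ranges did not overlap, and the gap was 1832 to 1897. The means were 2021 ± 102 (SD, n = 5) and 1702 ± 114 (SD, n = 4), a log2 fold change of -0.25 (SE 0.09, 95% interval -0.44 to -0.06), and the gene did not pass (limma adjusted p = 0.0716). The exact permutation p was 0.00794 over all splits and 0.025 within sex, the smallest possible in each, which again restates the lack of overlap. It passed with DESeq2 (adjusted p = 0.0417) and without ApcMin/+ replicate 4 (0.0468). After the correction for GC content and length the log2 fold change was -0.03 (adjusted p = 0.845), nearer to 0 than under any setting without that correction.

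Cdkn1c (ENSMUSG00000037664.13, chr7:143458339-143461050, minus strand) encodes p57, an imprinted inhibitor expressed mainly from the maternal copy. Normalized counts of the mice were 209, 118, 108, 118 and 146 in ApcMin/+ mice and 99.8, 212, 213 and 100.3 in ApcMin/+; p16cis/cis mice. In the latter a pair of mice lay near 100.3 and a pair near 212. The means were 140 ± 41.0 (SD, n = 5) and 156 ± 65.1 (SD, n = 4), for a log2 fold change of 0.10 (SE 0.29, 95% interval -0.52 to 0.73, limma adjusted p = 0.836). The interval allows a fold between 0.70 and 1.66 at this spread. Genes on the other strand overlap the exons of Cdkn1c (Gm44732), of Cdkn1a (AC167363.2) and of Cdk6 (Gm17590), so that the levels of these 3 genes may hold reads of their partners.

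Cdk4 (ENSMUSG00000006728.12, chr10:127063534-127067920, plus strand) encodes a cyclin D kinase that the INK4 proteins block. Its normalized count was 2916, 3179, 2966, 2252 and 2814 in ApcMin/+ mice and 3701, 3289, 4278 and 2730 in ApcMin/+; p16cis/cis mice. In 3 of the latter the value lay above all ApcMin/+ mice, and that of replicate 4 lay below 4 of them. The means were 2825 ± 347 (SD, n = 5) and 3500 ± 654 (SD, n = 4), for a log2 fold change of 0.30 (SE 0.14, 95% interval -0.01 to 0.60, limma adjusted p = 0.158). The exons of Cdk4 overlap those of Tspan31 on the other strand, and the strand used in counting is not given in the sources used here, so reads of the 2 genes may not be separable. Tspan31 averaged 817 ± 44.4 (SD, n = 5) and 894 ± 45.9 (SD, n = 4).

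Cdk6 (ENSMUSG00000040274.11, chr5:3341485-3531008, plus strand) encodes the second cyclin D kinase. Normalized counts by mouse were 1040, 980, 941, 725 and 1245 in ApcMin/+ mice and 1171, 1113, 951 and 904 in ApcMin/+; p16cis/cis mice. The lowest and the highest value both came from ApcMin/+ mice. The means were 986 ± 187 (SD, n = 5) and 1035 ± 127 (SD, n = 4), for a log2 fold change of 0.08 (SE 0.15, 95% interval -0.24 to 0.40, limma adjusted p = 0.735). The estimate turned to -0.02 without ApcMin/+ replicate 4 and to -0.21 in females alone, and it was 0.24 (adjusted p = 0.0985) after the correction for GC content and length.

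Rb1 (ENSMUSG00000022105.6, chr14:73183673-73325822, minus strand) encodes the retinoblastoma protein, the substrate through which Cdk4 and Cdk6 act, and it was the 1 gene of the 9 to fall. Its normalized count was 1110, 1078, 995, 1100 and 1247 in ApcMin/+ mice, from 865 to 1134 reads. In ApcMin/+; p16cis/cis mice it was 775, 737, 727 and 722, from 461 to 614 reads. All 4 of the latter lay below all ApcMin/+ mice, with a gap from 775 to 995, and they lay close to one another. The means were 1106 ± 91.0 (SD, n = 5) and 740 ± 24.1 (SD, n = 4), so Rb1 fell by 32.9%, or by 0.58 on the log2 scale (SE 0.09, 95% interval of the log2 fold change -0.78 to -0.37, limma adjusted p = 0.00404). The exact permutation p was 0.00794 over all splits and 0.025 within sex, the smallest values that these tests can give. They restate the lack of overlap and are no further support for the fall. With sex as a covariate the log2 fold change was -0.60 (adjusted p = 0.0108), and in females alone, 2 against 3 mice, it was -0.69 (0.0290). With each mouse left out in turn it was -0.61 to -0.53, with an adjusted p of 0.00262 to 0.0160.

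The call on Rb1 did not hold under every correction. Rb1 transcripts are poor in GC, with 9.78% of the genes tested at a lower GC content, and long, with 75.6% at a shorter length. Across the 14403 genes with both values, the log2 fold change had a Spearman correlation of 0.328 with GC content and of -0.227 with length, across genes, which are not independent replicates. After each mouse was corrected for GC content and length, a setting chosen after the data had been seen, the log2 fold change of Rb1 was -0.32 with an adjusted p of 0.0511, and with sex as a covariate as well 0.0980. With the mitochondrial share as a covariate it was -0.66 (adjusted p = 0.848), in a fit where none of the 14410 genes passed (limma, 798 with an unadjusted p under 0.05, beside 2469 genes passing with edgeR and 3251 with DESeq2 without that covariate). The part of the mitochondrial share in the result was not tested, since the genotypes do not overlap in it. The exons of Rb1 overlap those of Lpar6, which lies within Rb1, and of Rcbtb2, both on the other strand. Lpar6 averaged 365 ± 42.4 (SD, n = 5) and 351 ± 39.2 (SD, n = 4), and Rcbtb2 319 ± 37.1 (SD, n = 5) and 310 ± 61.6 (SD, n = 4). Both had a log2 fold change of -0.05 (adjusted p = 0.816 and 0.843).

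**Figure D2:**
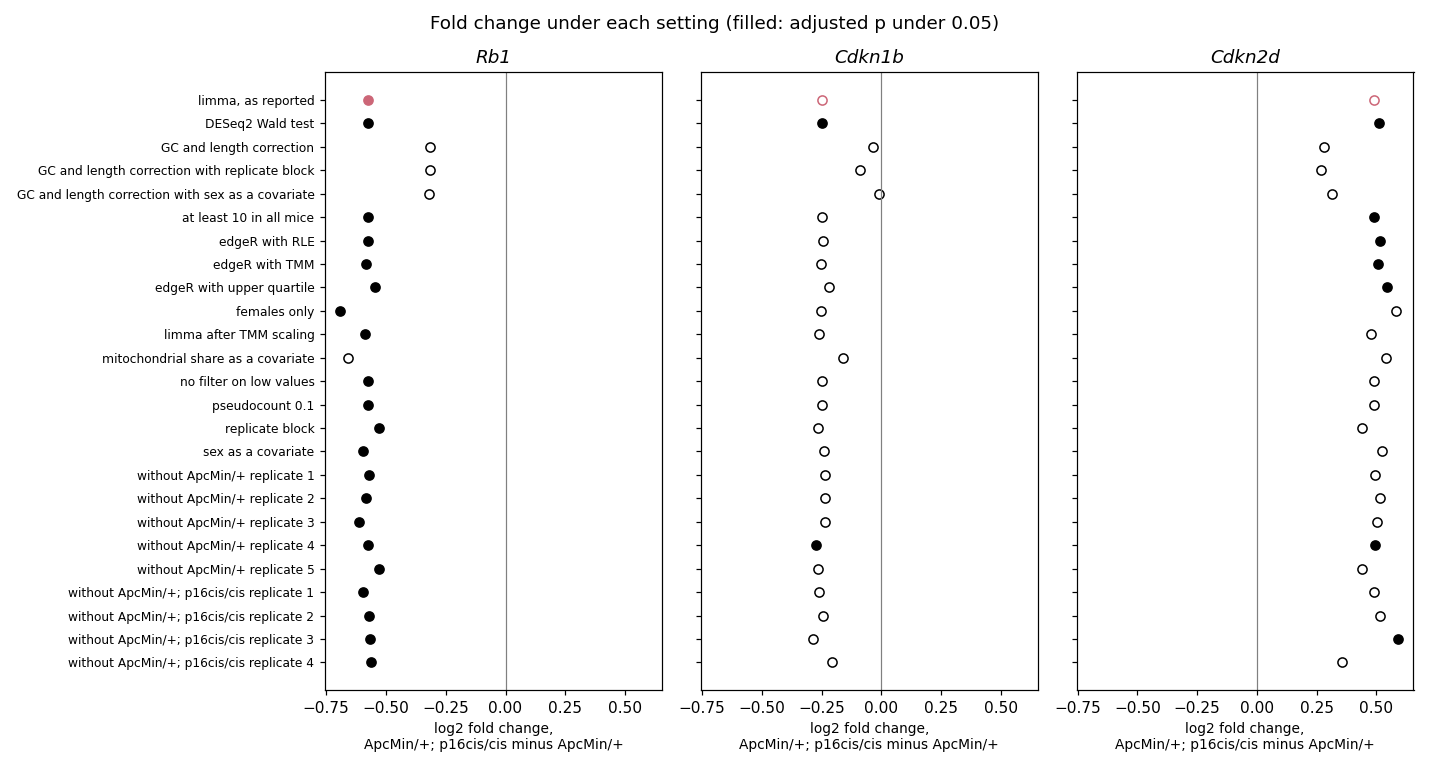
Log2 fold change of Rb1, Cdkn1b and Cdkn2d (horizontal axis, ApcMin/+; p16cis/cis minus ApcMin/+) under the limma fit as reported (red) and 24 other settings (black), filled where the adjusted p is under 0.05. Rb1 is below 0 in every setting and open in 4 of them, while Cdkn1b and Cdkn2d are open as reported and are closest to 0 after the correction for GC content and length.

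Levels were compared between genes only per kilobase, as normalized count per kilobase of merged exons averaged over the 9 mice. Cdkn1a was the highest at 1590 ± 472 (SD, n = 9), followed by Cdk4 at 962 ± 181 (SD, n = 9), Cdkn2b at 631 ± 122 (SD, n = 9) and Cdkn1b at 413 ± 43.1 (SD, n = 9). Then came Rb1 at 157 ± 33.9, Cdkn2d at 139 ± 34.6, Cdkn2c at 93.2 ± 16.8, Cdk6 at 72.0 ± 11.1 and Cdkn1c at 72.2 ± 24.5 (SD, n = 9 each). The last 2 are ranked by the mean of log2 values. Of the 3 INK4 inhibitors with reads, Cdkn2b had the highest level, with 68.9% to 81.0% of the summed level per kilobase of Cdkn2b, Cdkn2c and Cdkn2d in each mouse.

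Neighbors in this order were compared within each mouse. The order came from the same 9 mice and rests on 1 length per gene, so the ratios are a description and have no test. Cdkn1a exceeded Cdk4 in 9 of 9 mice, with a mean ratio of 1.62. Cdkn2b exceeded Cdkn1b 1.51-fold and Cdkn1b exceeded Rb1 2.68-fold, each in 9 of 9 mice. Cdk4 exceeded Cdkn2b 1.52-fold, Cdkn2d exceeded Cdkn2c 1.48-fold and Cdkn2c exceeded Cdk6 1.29-fold, each in 8 of 9 mice. Rb1 was higher than Cdkn2d in 5 of 9 mice (ratio 1.13), namely the 5 ApcMin/+ mice, while Cdkn2d was higher in the 4 ApcMin/+; p16cis/cis mice. This split holds for the merged exon length, and it pairs genes whose genotypes did not overlap in opposite directions. With the longest transcript, Rb1 averaged 203 and Cdkn2d 154 per kilobase, so the split depends on the length. Cdk6 was higher than Cdkn1c in 5 of 9 mice (ratio 1.04), so the order of this last pair varied between mice. The order depends on the length used. With the mean length of coding transcripts, Cdk6 stood at 325 per kilobase, above Rb1 at 203 and Cdkn2c at 139.9, and Cdkn1b at 648, above Cdkn2b at 631, so 2 of the 8 neighboring pairs were reversed.

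**Figure D3:**
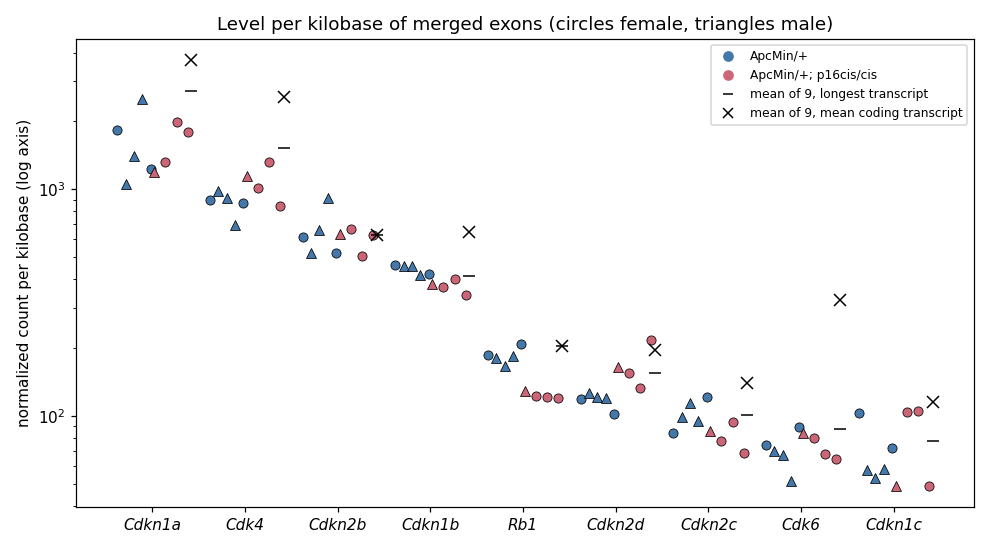
Normalized count per kilobase of merged exons (vertical log axis) of the 9 genes with reads, in the order of their mean, with blue points for ApcMin/+ and red points for ApcMin/+; p16cis/cis mice, circles for females and triangles for males. Black marks give the mean of the 9 mice with other transcript lengths, which moves Cdk6 the most, from 72.0 to 325 with the mean coding length.

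As shares of the summed level per kilobase of the 6 inhibitors with reads, Cdkn1a made up 53.2% ± 6.12 (SD, n = 9), Cdkn2b 21.6% ± 2.97 and Cdkn1b 14.5% ± 3.05. Cdkn2d, Cdkn2c and Cdkn1c each made up less, at 4.87%, 3.28% and 2.50% on average. Per kilobase, the INK4 sum was 868 ± 158 (SD, n = 5) without the p16cis alleles and 858 ± 83.4 (SD, n = 4) with them, and the CIP/KIP sum 2118 ± 573 and 2022 ± 394. These RNA shares and sums hold for the merged exon length and depend on the length used. With the longest transcript, Cdkn1a averaged 2716, Cdkn2b 631 and Cdkn1b 413 per kilobase. With the mean length of coding transcripts they averaged 3713, 631 and 648. The SD is the spread between mice and does not cover this choice. The shares and sums are descriptions and say nothing of protein. Cdk4 exceeded Cdk6 by 9.73 to 19.4 times per kilobase of merged exons in the 9 mice. With the mean length of coding transcripts the 2 kinases averaged 2552 and 325 per kilobase.

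The cyclins and kinases of G1 around these genes gave no call, beside the 16.9% called over all genes with limma. None of the 11 genes of that list passed with limma, edgeR or DESeq2, and Mnat1, a subunit of the CDK-activating kinase, was the 1 gene with an unadjusted p under 0.05 in each (limma log2 fold change -0.39, SE 0.15, adjusted p = 0.0971). Ccnd1, the cyclin D1 gene, averaged 1287 ± 343 (SD, n = 5) and 1282 ± 331 (SD, n = 4), for a log2 fold change of 0.00 (SE 0.23, limma adjusted p = 1.000). Ccnd2 averaged 5334 ± 640 (SD, n = 5) and 4549 ± 966 (SD, n = 4), and Ccnd3 910 ± 124 (SD, n = 5) and 827 ± 49.7 (SD, n = 4). Their log2 fold changes were -0.25 (SE 0.15) and -0.13 (SE 0.12). Cdk2, the kinase of S phase entry, had a log2 fold change of 0.14 (SE 0.14, limma adjusted p = 0.522).

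Of the 12 genes of the Rb family and the E2F and DP factors, 1 rose and none fell, 8.33% beside the 16.9% called over all genes. E2f4, a factor that mainly represses genes together with pocket proteins, was at 1606 to 1733 in ApcMin/+ mice and at 2287 to 2648 in ApcMin/+; p16cis/cis mice. The ranges did not overlap, and the log2 fold change was 0.54 (SE 0.08, limma adjusted p = 0.00339). It was 0.39 (adjusted p = 0.0175) after the correction for GC content and length, and 0.52 in females alone, where the call was lost (adjusted p = 0.0554). Rbl2, the pocket protein p130, had a log2 fold change of -0.39 (SE 0.15, limma adjusted p = 0.0923), and Rbl1, p107, one of -0.22 (SE 0.17, adjusted p = 0.392). E2f1, an activator of S phase genes, averaged 192 ± 55.3 (SD, n = 5) and 247 ± 83.7 (SD, n = 4), a log2 fold change of 0.35 (SE 0.29, limma adjusted p = 0.430). The median over the list was -0.10.

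**Figure D4:**
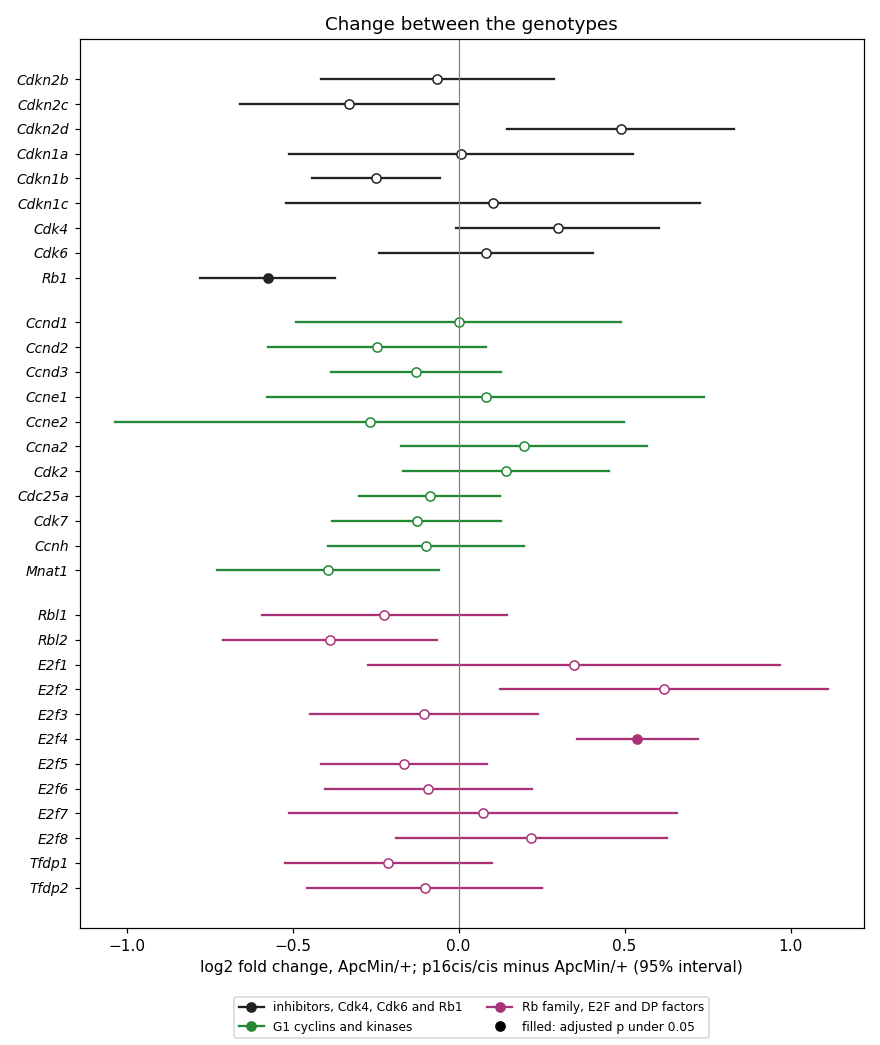
Log2 fold change (horizontal axis, ApcMin/+; p16cis/cis minus ApcMin/+) with its 95% interval from limma for the 9 genes with reads, 11 G1 cyclins and kinases and 12 Rb family, E2F and DP genes, filled where the adjusted p is under 0.05. Rb1 below 0 and E2f4 above 0 are the 2 filled points.

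Among 10 genes that turn over or repress the inhibitors, 2 fell and 1 rose, beside the 16.9% called over all genes, and the median log2 fold change was -0.17. Cul4a, a ubiquitin ligase scaffold of the complex that degrades p21, fell, averaging 1359 ± 148 (SD, n = 5) and 929 ± 79.8 (SD, n = 4), a log2 fold change of -0.55 (SE 0.11, limma adjusted p = 0.00873). Bmi1, the Polycomb protein that represses Cdkn2a, fell, averaging 335 ± 75.4 (SD, n = 5) and 222 ± 30.1 (SD, n = 4), a log2 fold change of -0.58 (SE 0.17, limma adjusted p = 0.0353). Its call was lost under 14 of 24 other settings, with an adjusted p of 0.0513 to 0.848, the removal of any mouse but ApcMin/+ replicate 4 among them. Myc, which represses Cdkn1a and Cdkn2b and is a target of Wnt signaling, rose, averaging 1356 ± 162 (SD, n = 5) and 1874 ± 251 (SD, n = 4), a log2 fold change of 0.47 (SE 0.12, limma adjusted p = 0.0259). The call on Myc was lost under 10 of the 24, with adjusted p-values of 0.0541 to 0.848, among them those without ApcMin/+ replicate 2 (0.0557), ApcMin/+; p16cis/cis replicate 3 (0.0544) or replicate 4 (0.0835).

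Of p53 and its targets besides Cdkn1a, 18 genes, 3 rose and 2 fell, 27.8% called beside 16.9% of all genes, with a median log2 fold change of 0.16 beside 0.00 over all genes. Bax, which opens the mitochondrial outer membrane in apoptosis, rose by 0.66 on the log2 scale (SE 0.13, limma adjusted p = 0.00881). Sesn2 rose by 0.48 (SE 0.11, adjusted p = 0.0155) and Mdm2, the ubiquitin ligase of p53, by 0.41 (SE 0.12, adjusted p = 0.0440). Pmaip1, the BH3 gene Noxa, fell by 0.66 (SE 0.17, adjusted p = 0.0241) and Trp53inp1 by 0.70 (SE 0.16, adjusted p = 0.0155). Bax and Sesn2 transcripts are rich in GC (99.3% and 93.0% of genes lower) and Pmaip1 and Trp53inp1 transcripts poor (12.9% and 3.60%), and after the correction for GC content and length none of these 4 passed (log2 fold change 0.27, 0.34, -0.49 and -0.37, adjusted p = 0.0914, 0.0579, 0.0847 and 0.163). Mdm2 passed after that correction, at 0.51 (adjusted p = 0.0223), and did not with sex as a covariate as well (0.0584). The call on Pmaip1 was also lost without ApcMin/+ replicate 3 (adjusted p = 0.0634) and without ApcMin/+; p16cis/cis replicate 1, 2 or 4 (0.0521, 0.0746 and 0.0558). The call on Mdm2 was lost without any mouse but ApcMin/+ replicate 5 and ApcMin/+; p16cis/cis replicate 1 (adjusted p up to 0.129). Trp53 itself had a log2 fold change of 0.33 (SE 0.14, limma adjusted p = 0.116).

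Of 7 markers of cycling cells, 1 was called (14.3%, beside 16.9% of all genes), and this gene, Mki67, rose, with means of 2332 ± 454 (SD, n = 5) and 4436 ± 969 (SD, n = 4), a log2 fold change of 0.92 (SE 0.17, limma adjusted p = 0.00656). The genotypes did not overlap, at 1856 to 3072 and 3240 to 5251, and in females alone the adjusted p was 0.0922. The other 6 did not pass, with log2 fold changes from -0.45 for Pcna to 0.37 for Cdk1. The summed normalized count of the 7 was 5869 to 9413 in ApcMin/+ mice and 8737 to 11828 in ApcMin/+; p16cis/cis mice. Slc26a3, a chloride exchanger of mature colonocytes, fell by 1.23 on the log2 scale (SE 0.24, limma adjusted p = 0.00848), and the part of cells represented by Mki67 and Slc26a3 in the fall of Rb1 was not tested.

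For each of the 9 genes with reads, the 3 genes with the most similar pattern over the 9 mice were found by Pearson correlation of log2(normalized count + 1) among the genes tested. The correlations were 0.925 to 0.988, they are the highest of 14410, and the points share the difference between genotypes and the composition of each library. Rb1 was most like Fnbp1l (0.988), Ppp1cb (0.983) and Ate1 (0.979). Cdkn2d was most like Mier2 (0.983), Cdkn1b like Psmd1 (0.980), Cdkn2b like Mcoln1 (0.971) and Cdkn2c like Ppfibp1 (0.950). Cdk4 was most like Ilf2 (0.971), with Trp53 as the third (0.931). For Cdk6, Cdkn1a and Cdkn1c the first genes were Primpol (0.978), RP23-19E7.4 (0.962) and Fam217b (0.940). None of the 9 was among the 3 closest to another.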

How the data were processed

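The RNA of colonic mucosa of 9 mice, each 1 replicate, was sequenced. Signal values were deposited as 1 table, in which each read count of a gene is scaled by the size factor of its mouse. According to the methods, BGISEQ-500 reads were aligned with BOWTIE2, quantified with RSEM and compared with DESeq2. Versions, the genome build and the strand used in counting are not given in the sources used here. Coordinates and lengths come from GENCODE M21 (GRCm38), which holds 54079 of the 54146 identifiers. Divided by the value of 1 read, 100% of positive values were whole to within 0.01 reads.

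Genotypes were compared with limma 3.58.1 (R 4.3.3, trended variances) on log2(normalized count + 1) over 14410 genes with at least 10 in at least 4 mice, since the values are normalized. Fold changes are on that scale, which understates low genes. Alternatives were edgeR 4.0.16 (quasi-likelihood) and DESeq2 1.42.0, both run on whole reads, and other filters, pseudocounts and covariates. Single genes were compared by exact permutation over 126 splits, and the p is printed only for Rb1, Cdkn1b and Cdkn2d, whose genotypes did not overlap. The limma p-values set the genotype difference against the spread between mice within a genotype, drawn toward a trend over genes.

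The 10 genes and all lists were chosen with earlier results of these data known. Named genes are the 10, fixed G1, Rb, E2F and p53 genes, from each list up to 4 called genes per direction by smallest p (or the 2 of smallest p), and the 3 most similar genes of each member. Not every gene meeting the rule is described. Tspan31, Lpar6 and Rcbtb2 were added for their overlaps, and Cdh5, Slc26a3, Pcna and Cdk1 after their values were seen. Cd3e, Cd68, Dmrta1 and Elavl2 are named outside the rule as well.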

Additional observations from a re-analysis of the deposited data

How the results depend on the processing

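Under 24 other settings Rb1 stayed lower, and it stayed called in 20. Its log2 fold change was -0.32 with the correction for GC content and length, -0.31 with that correction and the replicate block, -0.32 with it and sex, and -0.66 with the mitochondrial share as a covariate, none of them called. The cause was not tested. The last fit left 0 genes called in all, 0 of the 9 genes and 0 on the pathway lists, and its covariate does not overlap between the genotypes. The 3 fits with the GC and length correction, chosen after the data had been seen, called 0 of the 9 genes (3, 3 and 2 with an unadjusted p under 0.05, limma) and, on the 6 lists of G1, Rb and E2F, turnover, p53, locus and cycling genes, 5 genes, 7 with the block and 3 with sex, against 11 as reported. Of all genes, 1306 were called with that correction and the block and 791 with it and sex, 898 in females only and 1437 with sex as a covariate, against 2434. Females only gave 4 genes on the lists. Of the 9 genes, DESeq2 called 3, beside 3251 of 29946 genes with reads. The 3 edgeR fits, with TMM, RLE and upper quartile, called 2 each, beside 2469, 2460 and 2539 of 14410 genes. Limma over genes at 10 or more in all mice called 2, beside 2373 of 12568. With each mouse left out, 1 to 3 of the 9 genes, 6 to 14 list genes and 1183 to 3488 of all genes were called, with the fewest without ApcMin/+; p16cis/cis replicate 4 (1183), ApcMin/+; p16cis/cis replicate 2 (1257), ApcMin/+ replicate 3 (1287) and ApcMin/+ replicate 2 (1353).

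Genes with estimates near 0 changed sign. Cdkn1a, at 0.01 as reported, was at -0.028 with DESeq2, -0.032 with edgeR and TMM and -0.025 with edgeR and RLE, at -0.0048 with limma after TMM scaling, at -0.049 with sex, at -0.16 with the mitochondrial share, and at -0.10, -0.15 and -0.15 with the GC and length correction alone, with the block and with sex. Cdkn1c, at 0.10, was at -0.077 in females only, -0.12 with sex, -0.996 with the mitochondrial share, and -0.11, -0.043 and -0.33 with those 3 corrections. Cdkn2b was at 0.074 in females only and 0.0036 with sex, and Cdk6 at -0.21 in females only and -0.093 with the mitochondrial share. With the GC and length correction alone, with the block and with sex, Cdkn2b moved from -0.06 to -0.28, -0.31 and -0.21, and Cdk6 from 0.08 to 0.24, 0.26 and 0.21. With each mouse left out, Cdkn1a ranged from -0.13 to 0.19, Cdkn1c from -0.078 to 0.28, Cdkn2b from -0.13 to 0.067 and Cdk6 from -0.023 to 0.17. None of these was called. In the order of levels per kilobase, 3 of 9 genes kept their rank with the mean coding transcript length and 7 to 9 with a mouse left out. Replicate numbers 1 to 4 are shared by the genotypes but did not pair the mice (correlations of deviations -0.18, 0.07, 0.05 and 0.14). With the replicate block, Rb1 was at -0.53 (limma adjusted p = 0.0151), Cdkn1a at -0.072, and 2081 of all genes, 1 of the 9 and 8 list genes were called.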
